A study of Homo sapiens with 14 samples.

Results

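HOX genes encode homeodomain transcription factors that give cells their position along the head-to-tail axis of the embryo. They lie in 4 clusters, HOXA, HOXB, HOXC and HOXD, and within a cluster the order of the genes on the chromosome follows the order in which they are switched on from front to back. Low-numbered members act in the hindbrain and neck, and high-numbered members act in the lower trunk, the limbs and the tail end. Neuroblastoma arises from sympathetic precursors of the trunk neural crest, whose position along the axis is also written in HOX genes. Members were taken as every row of the count table whose symbol is HOX, a cluster letter from A to D and a number, which gave 32 of 20049 gene symbols. There were 9 HOXA, 9 HOXB, 6 HOXC and 8 HOXD genes, and HOX genes outside these 32 were not analysed here.

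RNA was sequenced from 14 established human neuroblastoma lines, IMR5-75, IMR32, SH-SY5Y, SK-N-SH, SK-N-FI, NGP, LS, GI-ME-N, SK-N-BE(2)C, SK-N-DZ, CLB-GA, SK-N-AS, Lan-6 and NBL-S, grown untreated in serum-containing medium without antibiotics. Each line gave 1 library, so no value has a replicate and intervals on single values cover counting error only. By general knowledge, not from the labels, IMR5-75 was derived from IMR32 and SH-SY5Y is a cloned subline of SK-N-SH. The series concerns telomere damage and immune recognition of neuroblastoma, and the labels define no class of lines, treatment or batch.

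The Lan-6 library was the smallest, with 35856642 counts in all, and LS the largest, with 58644013. Levels are CPM, a gene's counts scaled to library size (TMM), and a count of 0 allows up to 3 counts, or 0.0514 CPM in LS to 0.102 CPM in Lan-6. In Lan-6, counts went with the GC content of genes (rho = 0.579) and against transcript length (rho = -0.360) across genes, which was stronger than in the other libraries. Of 18 adrenergic (sympathetic neuroblast) markers, 18 reached 1 CPM in some line and 9 in every line. HAND2, a factor of sympathetic neuroblasts, was at 111 CPM (SK-N-SH) or more in every line, and PHOX2A, another, had a median of 252 CPM and stood at 0.527 CPM in GI-ME-N. Of 10 leukocyte and endothelial markers, 7 reached 1 CPM in some line, with PTPRC at 470 CPM in SK-N-AS and CD3E at no more than 0.0683 CPM in any line. The part of other cell types in the HOX levels was not tested.

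Start-site sequences are shown for members picked as examples of levels that differ in kind across the lines. HOXD13 and HOXD11 were near 0 in most lines and high in 2, HOXD8 was high in all 14, and HOXA9 was detected at 1 CPM in 2. Each sequence is the 250 bases before the RefSeq start on GRCh38.p14, written 5′ to 3′ on the strand of the gene. Capitals mark TATAAA, the core promoter TATA box, or TGATNNAT, the composite site of PBX and HOX proteins, on either strand, and adjoining or overlapping matches run together.

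HOXD13 (chr2:176092471-176092720, plus strand): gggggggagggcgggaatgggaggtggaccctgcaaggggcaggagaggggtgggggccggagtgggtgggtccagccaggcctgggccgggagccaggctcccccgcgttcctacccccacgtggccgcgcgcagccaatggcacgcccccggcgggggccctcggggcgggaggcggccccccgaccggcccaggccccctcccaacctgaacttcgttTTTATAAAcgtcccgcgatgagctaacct

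HOXD11 (chr2:176107030-176107279, plus strand): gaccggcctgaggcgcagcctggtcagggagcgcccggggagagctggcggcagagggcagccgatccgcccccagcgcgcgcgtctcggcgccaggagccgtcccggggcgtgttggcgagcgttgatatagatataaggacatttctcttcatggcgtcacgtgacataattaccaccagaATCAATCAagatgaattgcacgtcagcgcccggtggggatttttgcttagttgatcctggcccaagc

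HOXD8 (chr2:176129455-176129704, plus strand): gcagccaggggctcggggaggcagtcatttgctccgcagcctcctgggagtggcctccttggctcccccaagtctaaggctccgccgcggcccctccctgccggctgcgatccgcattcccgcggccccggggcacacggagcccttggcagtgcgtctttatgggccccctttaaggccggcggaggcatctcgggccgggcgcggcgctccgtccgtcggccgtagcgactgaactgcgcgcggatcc

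HOXA9 (chr7:27165538-27165787, minus strand): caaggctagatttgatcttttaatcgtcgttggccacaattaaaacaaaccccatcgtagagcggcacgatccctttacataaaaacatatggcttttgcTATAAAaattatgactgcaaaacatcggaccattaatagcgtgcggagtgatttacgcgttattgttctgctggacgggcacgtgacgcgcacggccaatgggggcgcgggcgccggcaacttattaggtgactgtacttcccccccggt

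TATAAA stands in the HOXD13 and HOXA9 windows, TGATNNAT stands in the HOXD11 window, and neither set of letters stands in the HOXD8 window. Neither stands in the windows of HOXD10 and HOXA7, which are not shown. HOXD10 was above 10 CPM in 2 lines, and HOXA7 reached 1 CPM in 2. Windows were at hand for 16 of the 32 members, 23 in all at 22 positions. TATAAA was found in 5 of these 23 windows (21.7%; 1 each of HOXA3, HOXA9 and HOXD13 and 2 of HOXA10), while 10.7% of all 35116 windows hold it on either strand. TGATNNAT was found in 2 of the 23 (8.70%; HOXA2 and HOXD11), while 6.47% of all windows hold it. HOX windows had a median of 20 CG dinucleotides against 11 in all windows, at a median GC content of 58.8% against 58.0%. HOXA3 and HOXA10 have more than 1 window each, and by member 4 of the 16 have TATAAA. The HOXA3 window and 1 of the 2 HOXA10 windows with TATAAA lie wholly in annotated exons. A match describes these letters alone.

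The lines shared a core of HOXD and HOXC genes and differed in the rest. Of the 32 members, 26 reached 1 CPM in at least 1 line, 5 reached it in every line (HOXC4, HOXD3, HOXD4, HOXD8 and HOXD9), and 6 (HOXB4, HOXB5, HOXB6, HOXB7, HOXB8 and HOXB9) stayed under it in all 14. With the trend of each library with GC content and transcript length removed, HOXD4 came to 0.699 (Lan-6) and 0.951 CPM (SK-N-SH), which left 4 members at 1 CPM in every line. SK-N-FI had the most members at 1 CPM, 23, followed by NGP with 17, and IMR32 had the fewest with 5. At least 10 CPM in a line and less than 1 CPM in another was seen for 13 members, 3 HOXA, 2 HOXB, 5 HOXC and 3 HOXD genes, while 16.2% of all 20049 genes met this rule. Over the 12 lines left without the derived IMR5-75 and SH-SY5Y, the SD of log2 CPM had a median of 1.89 for the 32 members and 0.86 for all genes.

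**Figure D1:**
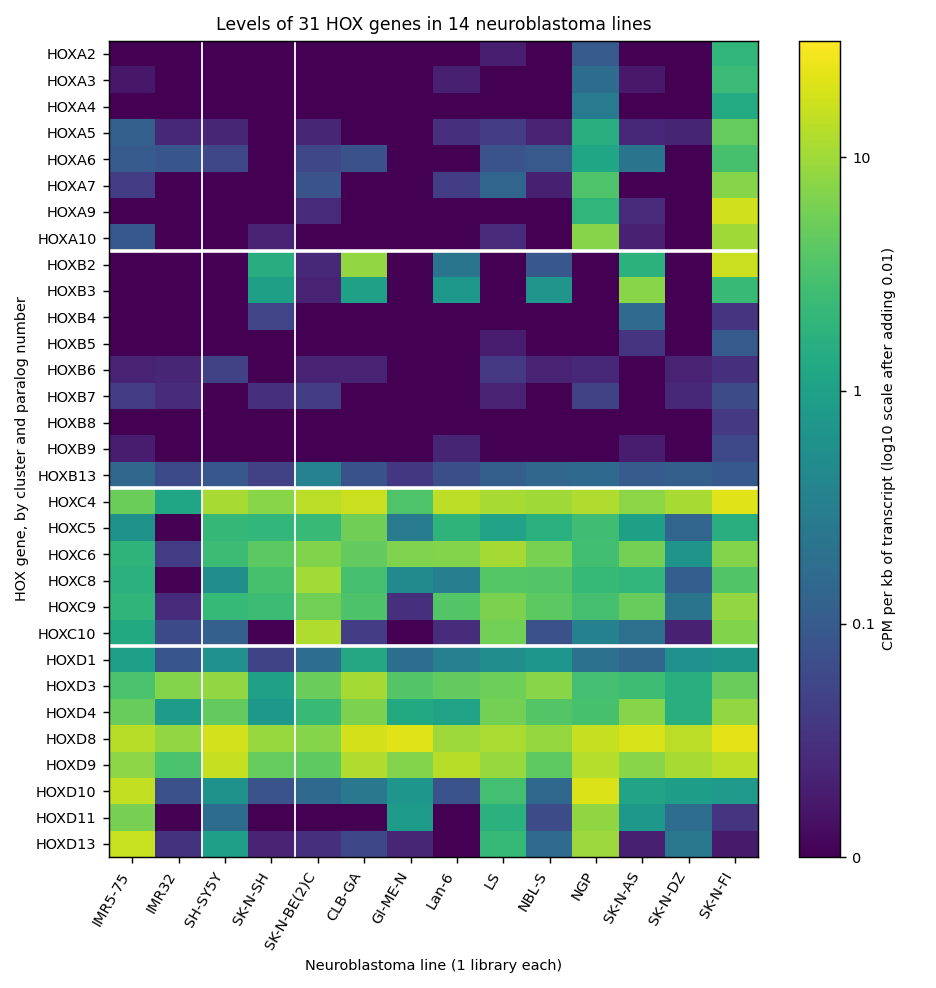
Levels of 31 of the 32 HOX genes (rows, by cluster and number) in 14 lines (columns, 1 library each), in CPM per kb of transcript on a log10 colour scale after adding 0.01. The HOXA block is bright in NGP and SK-N-FI alone, the middle of the HOXB block is dark in all 14 lines, and HOXD8 and HOXD9 are bright in all 14.

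To compare genes and clusters with each other, CPM was divided by transcript length. The summed level of all members ran from 21.4 CPM per kb in IMR32 to 169 CPM per kb in SK-N-FI. HOXD genes made up between 27.2% (SK-N-BE(2)C) and 93.2% (IMR32) of that sum. The member with the highest level per kb was HOXD8 in 9 lines, HOXC4 in SK-N-BE(2)C, Lan-6 and NBL-S, HOXD10 in NGP and HOXD13 in IMR5-75, and with the trend removed HOXD9 led in LS in place of HOXD8. In Lan-6 the summed HOXD level was 28.9 CPM per kb, and 15.5 CPM per kb with the trend removed.

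**Figure D2:**
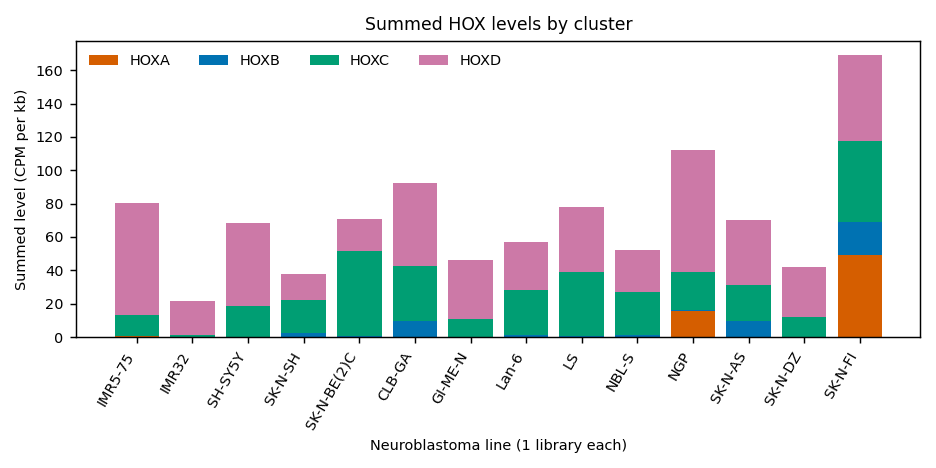
Summed levels of the HOX genes of each cluster (stacked bars, CPM per kb) in 14 lines, 1 library each. The sum is highest in SK-N-FI at 169 CPM per kb and lowest in IMR32 at 21.4 CPM per kb, and HOXA genes add a visible share in NGP and SK-N-FI.

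The HOXA cluster (chromosome 7, minus strand) was on in 2 lines. Its summed level was 49.5 CPM per kb in SK-N-FI and 15.9 CPM per kb in NGP, against no more than 0.328 CPM per kb (IMR5-75) elsewhere. HOXA9 (chr7:27162435-27175180), a posterior member known for its role in blood progenitors and leukaemia, was at 25.6 CPM in SK-N-FI and 2.88 CPM in NGP, with 1 count each in SK-N-BE(2)C and SK-N-AS and 0 counts in the other 10 lines. HOXA10 (chr7:27170591-27180261), which patterns the uterus and the lumbar region, was at 21.5 CPM in SK-N-FI and 15.8 CPM in NGP, at 0.177 CPM in IMR5-75, 0.0274 in SK-N-SH, 0.0236 in SK-N-AS and 0.0343 in LS, and at 0 counts in the other 8 lines. No other line came near these levels of either gene.

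In SK-N-FI all 9 HOXA members were above 1 CPM, while in NGP 5 were. HOXA7, a thoracic member, was at 14.7 CPM in SK-N-FI and 6.91 CPM in NGP, at 0.257 in LS, 0.137 in SK-N-BE(2)C, 0.0678 in Lan-6, 0.0665 in IMR5-75 and 0.0207 in NBL-S, and at 0 counts in the other 7 lines. HOXA5, which acts in the lung and the neck skeleton, was at 7.85 and 2.56 CPM in these lines, and HOXA6 at 2.94 and 1.10 CPM. The anterior end differed between them: HOXA2, HOXA3 and HOXA4 were at 3.59, 8.0 and 2.40 CPM in SK-N-FI and at 0.161, 0.538 and 0.457 CPM in NGP. HOXA2 patterns the hindbrain, HOXA3 the throat pouches that give thymus and parathyroid, and HOXA4 the neck. The highest level of any HOXA member outside SK-N-FI and NGP was 0.257 CPM, of HOXA7 in LS. Exons of the antisense RNA HOXA-AS3 cover 62.5% of the exonic bases of HOXA7 and 39.3% of those of HOXA6, and the strand setting of the counting is not given in the sources used here, so sense and antisense reads of these genes cannot be told apart.

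In the HOXB cluster (chr17:48540894-48729178, minus strand) HOXB2 and HOXB3, 2 genes of hindbrain segments, were on in some lines, and the middle of the cluster stayed under 1 CPM in all. HOXB2 (chr17:48540894-48544989) was at 26.0 CPM in SK-N-FI, 13.4 in CLB-GA, 2.79 in SK-N-AS and, lower still, 2.39 in SK-N-SH, at 0.339 CPM in Lan-6 (0.165 with the trend removed), 0.124 in NBL-S and 0.0228 in SK-N-BE(2)C, and at 0 counts in the other 7 lines. HOXB3 (chr17:48548870-48604912) was at 13.8 CPM in SK-N-AS, 4.15 in SK-N-FI, 1.82 in CLB-GA, 1.76 in SK-N-SH, 1.32 in Lan-6 and 1.20 in NBL-S, had 1 count in SK-N-BE(2)C and 0 in the other 7. The same 7 lines had HOXB2 or HOXB3 counts, and both genes had 0 counts in GI-ME-N, IMR5-75, IMR32, LS, NGP, SK-N-DZ and SH-SY5Y. With that trend removed, HOXB3 was at 0.507 CPM in Lan-6. Across 12 lines the levels of HOXB2 and HOXB3 had rho = 0.977 and r = 0.872, with ties at 0 among the points.

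HOXB4 was the highest of the 6 HOXB genes under 1 CPM, with 25 counts or 0.590 CPM in SK-N-AS, next to 0.165 (SK-N-SH) and 0.0903 (SK-N-FI), and 0 counts in the other 11 lines. HOXB5 reached 0.181 CPM, HOXB9 0.126 CPM, HOXB7 0.0722 CPM and HOXB8 0.0361 CPM, each in SK-N-FI, and HOXB6 reached 0.0688 CPM in SH-SY5Y. These levels of HOXB5 to HOXB9 are 10 counts or fewer, so an order among the lines was not detectable at this depth. HOXB13, the most posterior HOXB gene and a factor of prostate epithelium, had counts in all 14 lines, between 0.0930 (GI-ME-N) and 1.18 CPM (SK-N-BE(2)C), the sole line above 1 CPM.

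HOXC genes (chr12:53985065-54056030, plus strand), which pattern the neck, chest and loin levels and their motor neurons, were on in most lines and nearly off in IMR32. The summed HOXC level was highest in SK-N-BE(2)C (51.2 CPM per kb) and SK-N-FI (48.7), and lowest in IMR32 at 1.27 CPM per kb. HOXC4, a gene of the neck level and the most anterior HOXC member here, was above 1 CPM in every line. It was at 33.8 CPM in SK-N-FI, 26.6 in CLB-GA, 22.7 in Lan-6, 22.1 in SK-N-BE(2)C, 19.3 in NGP, 17.5 in SK-N-DZ, 17.4 in SH-SY5Y, 17.3 in LS, 16.2 in NBL-S, 12.3 in SK-N-AS, 12.1 in SK-N-SH, 8.17 in IMR5-75, 5.49 in GI-ME-N and 1.87 in IMR32. The 3 lowest lines thus lay under 10 CPM and the other 11 above it.

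HOXC6, active in forelimb-level motor neurons in mouse, ran from 0.0749 CPM in IMR32 and 1.5 in SK-N-DZ to 25.0 CPM in LS, and 8 lines were above 10 CPM. HOXC8, also of the forelimb level and chest, was highest in SK-N-BE(2)C at 19.8 CPM and had 0 counts in IMR32, 0.192 CPM in SK-N-DZ, 0.576 in Lan-6, 0.837 in GI-ME-N and 0.987 in SH-SY5Y. HOXC9, a chest-level factor also known from neuronal differentiation of neuroblastoma cells, was at 12.9 CPM in SK-N-FI, and at 0.0250 CPM in IMR32, 0.0310 in GI-ME-N and 0.321 in SK-N-DZ. GI-ME-N therefore held HOXC6 at 15.7 CPM with almost no HOXC9, and 0 counts of HOXC10. HOXC5 ran from 0 counts in IMR32 to 10.0 CPM in CLB-GA, with a median of 2.95 CPM. With the trend removed, Lan-6 had 1.69 in place of 3.39 CPM of HOXC5 and 2.98 in place of 5.59 CPM of HOXC9.

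HOXC10 (chr12:53985065-53990279), a lumbar gene that specifies hindlimb motor neurons in mouse, was the most divided HOXC member. SK-N-BE(2)C had 23.3 CPM, SK-N-FI 13.3, LS 11.1 and IMR5-75 2.59 CPM. NGP had 0.646 CPM, SK-N-AS 0.354, SH-SY5Y 0.206, NBL-S 0.124, IMR32 0.0998, CLB-GA 0.0633, Lan-6 0.0339 and SK-N-DZ 0.0214 CPM, and GI-ME-N and SK-N-SH had 0 counts. There was a gap between 4 lines above 2 CPM and 10 lines under 1 CPM. HOXC4 and HOXC6 share 484 exonic bases in GENCODE 29, and a second annotated HOXC5 transcript unit covers 59.9% of the HOXC5 exons, so counts may have been split among these genes.

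The HOXD cluster (chr2:176092891-176190907, plus strand) held the genes that all lines shared and, at its posterior end, those that set a few lines apart. HOXD8 (chr2:176129694-176132695), a trunk-level gene, was the most even member, between 10.5 CPM in SK-N-BE(2)C and 33.0 CPM in SK-N-FI with a median of 19.3 CPM, and its SD of log2 CPM over 12 lines was 0.58. The 5 highest levels after SK-N-FI were 30.6 CPM in GI-ME-N, 28.2 in SK-N-AS, 27.3 in CLB-GA, 26.4 in SH-SY5Y and 22.4 in NGP. SK-N-DZ had 19.7 CPM, IMR5-75 18.9, LS 16.5, Lan-6 13.8, SK-N-SH 13.2, NBL-S 12.7 and IMR32 12.5 CPM. All 14 lines were above 10 CPM, and no gap set any of them apart.

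HOXD9, next to it and likewise of the trunk, lay between 5.99 CPM in IMR32 and 29.5 CPM in SH-SY5Y, with a median of 15.8. HOXD3, which patterns the upper neck vertebrae, ran from a low of 2.31 (SK-N-SH) to a high of 25.0 CPM (CLB-GA), and HOXD4, of the hindbrain and neck, from 1.07 (SK-N-SH) up to 12.4 CPM (SK-N-FI). HOXD1, the most anterior HOXD gene, active in pain-sensing neurons in mouse, was low throughout, with 0.0823 (SK-N-SH) as its lowest and 2.55 CPM (CLB-GA) as its highest level, and reached 1 CPM in 7 lines. Exons of AC009336.3, on the opposite strand, cover 50.1% of the exonic bases of HOXD1. As the strand setting is not given, reads of the 2 strands cannot be told apart there. The readthrough gene AC009336.2, counted as a row of its own at 0.674 to 10.2 CPM, covers 62.2% of the exonic bases of HOXD3 and 80.5% of those of HOXD4, so the split of reads among these 3 genes is uncertain. With the trend removed, the Lan-6 levels were lower for HOXD9 (9.24 in place of 25.0 CPM) and HOXD3 (5.74 in place of 10.6 CPM).

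The posterior HOXD genes, which shape the forearm, wrist and digits, were high in IMR5-75 and NGP and intermediate in LS. HOXD10 (chr2:176108790-176119942) was at 41.5 CPM in NGP, 29.8 in IMR5-75, 5.62 in LS, 2.17 in SK-N-AS, 1.82 in SK-N-DZ, 1.55 in SK-N-FI, 1.33 in GI-ME-N and 1.22 in SH-SY5Y. It was at 0.486 CPM in CLB-GA, 0.296 in SK-N-BE(2)C, 0.269 in NBL-S, 0.137 in SK-N-SH, 0.136 in Lan-6 and 0.125 in IMR32. The top pair stood apart from LS, and LS from the rest.

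HOXD11 was at 12.6 CPM in NGP, 9.37 in IMR5-75, 2.66 in LS, 1.30 in GI-ME-N and 1.11 in SK-N-AS, and at no more than 0.257 CPM (SK-N-DZ) in the other 9 lines. HOXD13 (chr2:176092891-176095938), the digit gene whose mutation causes fused and extra fingers, was at 35.7 CPM in IMR5-75, 20.8 in NGP, 4.90 in LS and 2.09 in SH-SY5Y. SK-N-DZ had 0.534 CPM, NBL-S 0.352 and CLB-GA 0.106, followed by IMR32 with 0.0499, SK-N-BE(2)C with 0.0455, GI-ME-N with 0.0310, SK-N-SH with 0.0274, SK-N-AS with 0.0236 and SK-N-FI with 0.0181 CPM, and Lan-6 had 0 counts. GI-ME-N and SK-N-AS thus held HOXD10 and HOXD11 at 1 CPM without HOXD13, and SH-SY5Y held HOXD10 and HOXD13 at that level without HOXD11. With the trend removed, GI-ME-N (0.826 CPM) and SK-N-AS (0.983 CPM) were under 1 CPM of HOXD11. HOXD10 and HOXD11 share 452 exonic bases, and their levels over 12 lines had rho = 0.848 and r = 0.912.

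Over the same 12 lines, neighbours within the HOXC cluster had a median rho of 0.587 (5 pairs) and more distant HOXC pairs 0.415 (10 pairs). For HOXD these medians were 0.493 (7 pairs) and 0.245 (21 pairs), and for the 243 pairs between clusters the median rho was 0.280. In HOXA the order was the other way, 0.618 for 8 neighbouring pairs and 0.699 for 28 others, with most lines at or near 0 counts. In HOXB the values were 0.420 for 2 neighbouring pairs and -0.160 for 1 other. Neighbours here are members next in number among those that reached 1 CPM in a line, so HOXB3 and HOXB13 count as neighbours. These correlations are descriptions over lines that share each library's depth and base composition, and neighbours can also share exons.

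The derived line IMR5-75 had far more HOXC and posterior HOXD RNA than its parental line IMR32. HOXD13 had 1613 counts in IMR5-75 and 2 in IMR32, a 716-fold higher level (95% interval 198 to 5917, exact binomial, counting error only). HOXD10 had 1344 counts in IMR5-75 and 5 in IMR32, 239-fold higher (102 to 736), and HOXD11 had 423 and 0, at least 125-fold higher when the 0 is set at 3 counts. The 3 genes at the posterior end were thus at single-digit counts in the IMR32 library and at 423 or more in the IMR5-75 library.

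Among HOXC genes, HOXC9 had 134 counts in IMR5-75 and 1 in IMR32, 119-fold higher (21.0 to 4734). HOXC6 had 201 and 3 counts in these lines, 59.5-fold higher (20.1 to 291). HOXC8 had 144 and 0, at least 42.6-fold higher. HOXC5 with 50 and 0 counts was at least 14.8-fold higher, HOXC10 with 117 and 4 was 26.0-fold higher (9.88 to 96.9), and HOXC4 with 369 and 75 was 4.37-fold higher (3.40 to 5.68), so all 6 HOXC members were higher in IMR5-75. At the anterior end of HOXD, HOXD1 was 12.3-fold higher and HOXD4 5.72-fold higher. HOXD9 was 2.43-fold and HOXD8 1.52-fold higher. HOXD3 went the other way, with 340 counts in IMR5-75 and 662 in IMR32 (0.456-fold, 0.399 to 0.520). The readthrough gene AC009336.2, which shares exons with HOXD3 and HOXD4, was at 4.90 CPM in IMR5-75 and 0.674 CPM in IMR32. Changes of HOXD3 and HOXD4 themselves and a changed split of reads among these overlapping genes cannot be told apart.

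Of the 14 members at 1 CPM or more in IMR5-75 or IMR32, 11 were at least 4-fold higher in IMR5-75, while 6.92% of 15179 genes at that level were. 0 of the 14 were at least 4-fold lower, while 5.53% of genes were. The median log2 fold of the 14 was 4.29, with 0 counts set at 3, and that of all genes was -0.01. The 2 libraries were alike over 17475 genes outside the HOX set, with rho = 0.909, the highest of IMR5-75 with any of the other 13 lines (median 0.852). Their state scores, the excess of mesenchymal over adrenergic (sympathetic) marker RNA on a log2 scale, were 0.103 in IMR5-75 and -2.16 in IMR32, and MYCN was at 598 and 1442 CPM in these lines, whose part in the HOX differences was not tested. With 1 library per line, a difference between the lines and one between these cultures cannot be told apart.

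SH-SY5Y and its parental line SK-N-SH differed in another set of HOX genes and in both directions. HOXB2 and HOXB3 had 0 counts each in SH-SY5Y, against 87 and 64 in SK-N-SH, at least 34.7-fold and 25.5-fold lower. HOXC8 had 43 counts in SH-SY5Y and 205 in SK-N-SH, 5.70-fold lower (4.09 to 8.12). HOXD genes were higher in SH-SY5Y, where HOXD3 had 884 counts, against 84 in SK-N-SH, 8.80-fold higher (7.03 to 11.1).

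HOXD4 with 295 counts in SH-SY5Y and 39 in SK-N-SH was 6.32-fold higher (4.52 to 9.07), and HOXD10 with 53 and 5 was 8.86-fold higher (3.57 to 28.4). HOXD1 had 48 and 3 counts in these lines, 13.4-fold higher (4.31 to 67.1). HOXD13 had 91 and 1 counts, 76.1-fold higher (13.3 to 3037). HOXD9 was 3.32-fold and HOXD8 2.00-fold higher, so each of the 7 HOXD members at 1 CPM in either line was higher in SH-SY5Y. HOXC4, HOXC5 and HOXC9 differed less, with ratios of SH-SY5Y to SK-N-SH of 1.44 (1.28 to 1.63), 1.02 (0.808 to 1.29) and 0.890 (0.701 to 1.13), and HOXC6 with 251 and 356 counts was 1.70-fold lower (1.44 to 2.00).

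Of the 14 members at 1 CPM or more in SH-SY5Y or SK-N-SH, 5 were at least 4-fold higher in SH-SY5Y, while 9.10% of 15062 genes were, and 3 were at least 4-fold lower, while 9.92% of genes were. The median log2 fold was 0.77 for the 14 and -0.005 for all genes. The 2 libraries were not close over genes outside the HOX set. Their rho was 0.826, which ranked SK-N-SH as the 12th of 13 lines for SH-SY5Y, whose median rho was 0.879 and whose nearest line was IMR32 at 0.912. The state score was -1.40 in SH-SY5Y and 9.37 in SK-N-SH, the most mesenchymal line, and MYCN was at 21.5 and 0.384 CPM in these lines, and their part in the HOX differences was not tested.

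**Figure D3:**
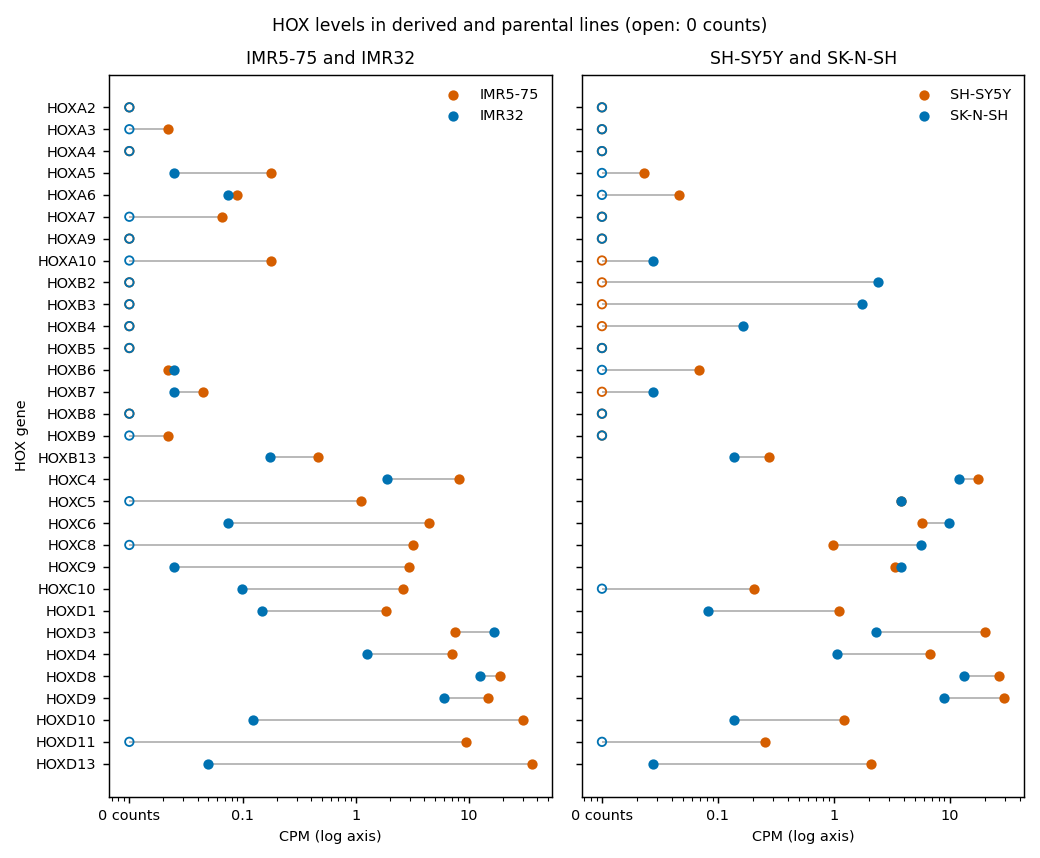
Levels of 31 of the 32 HOX genes in 2 derived lines (orange) and their parental lines (blue), in CPM on a log axis, 1 library each, with open circles at the left edge for 0 counts. In IMR5-75 the HOXC genes and HOXD10, HOXD11 and HOXD13 lie far to the right of IMR32, and in SH-SY5Y the HOXD genes lie to the right of SK-N-SH while HOXB2 and HOXB3 are at 0 counts.

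Neuroblastoma lines are known to differ in their mesenchymal or adrenergic state and in MYCN, the transcription factor gene amplified in many aggressive tumours. Whether HOX levels follow either was tested across 12 lines, without IMR5-75 and SH-SY5Y, as a slope per SD in edgeR's quasi-likelihood test with Benjamini-Hochberg adjustment over all genes. The state score is the mean centred log2 CPM of 18 mesenchymal markers minus that of 18 adrenergic markers. It was highest in SK-N-SH (9.37) and GI-ME-N (9.19), next in LS (2.84) and SK-N-AS (2.04), and between -4.03 (Lan-6) and -0.957 (NGP) in the other 8 lines.

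No HOX gene followed the state score past the threshold. Of the 18 members that passed the filter on low counts, 0 were called at an adjusted p of 0.05, while 6.07% of all 18177 genes were, 639 rising and 464 falling. At an unadjusted p under 0.05 stood 1 member, HOXD1, with a slope of -0.86 log2 per SD (SE 0.39, edgeR adjusted p = 0.229, and 0.0948 to 0.530 over 21 alternatives). The median slope was -0.43 for the 18 members and -0.04 for all genes, and 4 of the 18 slopes were positive, against 45.6% of all genes. HOXD8 had a slope of 0.11 (SE 0.20) and HOXC6 of 0.15 (SE 0.43), the nearest to 0. DESeq2 called 1 of the 18 members, HOXA7, which fell with a slope of -4.40 (DESeq2 adjusted p = 0.0268, and 0.0268 to 0.730 over 18 alternatives). It also called 2846 of all 18177 genes. On the deposited log2 values limma called 0 members and 1002 of all genes.

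On MYCN, 0 of 17 members passed, while 3.61% of all 17768 genes did, 196 rising and 445 falling. HOXD13 was nearest, with a slope of 3.53 log2 per SD of MYCN (SE 0.94, edgeR adjusted p = 0.0562, and 2.43e-04 to 0.240 over 15 alternatives). MYCN was at 1177 CPM in NGP and 949 CPM in LS, the 2 lines of the 12 with HOXD13 above 1 CPM, but also at 1442 CPM in IMR32 and 2245 CPM in SK-N-BE(2)C, where HOXD13 had 2 counts each. Without LS, NBL-S, NGP or SK-N-DZ, HOXD13 did not pass the filter on low counts and was not tested. The unadjusted p was also under 0.05 for HOXB3, with a slope of -2.96 (SE 1.08, edgeR adjusted p = 0.120, and 0.00324 to 0.260 over 19 alternatives), and for HOXB13, with 0.64 (SE 0.25, edgeR adjusted p = 0.133, and 0.0598 to 0.315 over 19). The median slope was 0.14 for the 17 members and -0.01 for all genes.

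The call on MYCN depended on the tool. DESeq2 called 4 of the 17 members, HOXD13 and HOXC10 rising (adjusted p = 2.43e-04 and 0.0327) and HOXB2 and HOXB3 falling (adjusted p = 4.10e-04 and 0.00324). It also called 3173 of all 17768 genes. On the deposited log2 values limma called 0 members and 343 of all genes. Over 19 alternatives the adjusted p ran from 0.0327 to 0.462 for HOXC10 and from 4.10e-04 to 0.689 for HOXB2. Without a filter on low counts edgeR called HOXB4, which has 0 counts in 11 of 14 lines, as falling (adjusted p = 0.0402). In edgeR, no member tested was called with any 1 line left out, with other size factors or with the trend with GC content and length removed. Without IMR32 or NGP edgeR called 0 of all genes on MYCN, so those fits say nothing about the members. It called 8 genes without GI-ME-N, 14 without SK-N-SH, 25 without SK-N-DZ and 72 without NBL-S. With so few calls over all genes, those fits say little about the members.

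**Figure D4:**
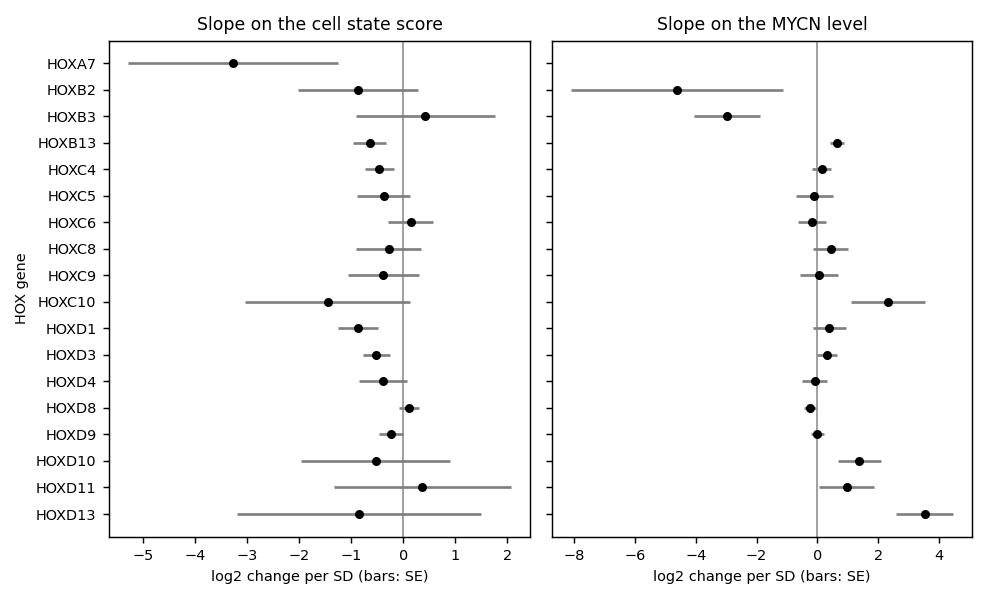
Slopes of the HOX genes that passed the filter on low counts, in log2 per SD of the cell state score (left, 18 genes) and of MYCN (right, 17 genes), over 12 lines, with bars for the SE. Slopes on the state score lie mostly left of 0 and HOXD13 lies farthest right on MYCN, and no gene passes an adjusted p of 0.05 in edgeR.

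HOX proteins bind DNA with TALE homeodomain partners, and most of these were present in every line. All 9 TALE genes listed reached 1 CPM in some line and 7 in every line, and 0 were called in either scan. MEIS1 ran from 10.0 CPM in Lan-6 to 476 CPM in IMR5-75, MEIS3 from 1.18 CPM in SK-N-BE(2)C to 141 CPM in Lan-6 and PKNOX2 from 0.0823 (SK-N-SH) up to 25.7 CPM (LS). Trithorax group genes, which keep HOX clusters active, reached 1 CPM in every line in 10 of 10 cases, and Polycomb genes, which silence them, in 13 of 14, with 0 of either group called in a scan. CBX7, a Polycomb reader and the exception, was at 0.973 CPM in IMR32, 5.74 CPM in IMR5-75 and 27.9 CPM in Lan-6. EZH1, another Polycomb gene, was at 242 CPM in IMR5-75 and 58.3 CPM in IMR32, and the Trithorax gene ASH1L at 230 and 155 CPM in these lines. Others of both groups went the other way. KMT2A was at 83.5 and 194 CPM in IMR5-75 and IMR32, WDR5 at 54.5 and 103, SUZ12 at 91.8 and 108, and RING1 at 36.1 and 52.2 CPM. The part of these genes in the HOX differences was not tested.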

How the data were processed

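Per the labels' protocols, TRIzol RNA of 14 lines went into TruSeq library preparation. Tools named in the submitters' processing notes are kallisto 0.44.0 and DESeq2 1.48.2, with the build GRCh38 and no roles. Annotation, strand setting and filters were not stated there. The count table deposited by the authors was read as estimated counts per gene that they had rounded, since its values are whole and differ in total. The deposited log2 values, named variance-stabilised by the authors, served as an alternative scale.

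Members and gene lists were chosen with earlier results of these data known. The lists were TALE cofactors, ParaHox and EVX genes, genes flanking the clusters, Trithorax, Polycomb and retinoic acid genes, and adrenergic, mesenchymal, fibroblast, leukocyte and endothelial, and kidney markers. CPM used TMM factors (edgeR 4.0.16, R 4.3.3), and log2 CPM a prior count of 2. Lengths and positions are from GENCODE 29, in which 99.1% of symbols and all 32 members matched. Level per kb is CPM over the median length of protein-coding transcripts. Values in every line were given for the 2 members of each cluster and the member of each line with the highest level per kb, and for members called in a scan by any tool or filter. Scans used glmQLFit and filterByExpr, with limma 3.58.1 and DESeq2 1.42.0 as alternatives. On simulated counts with 200 genes changed, 76% of the genes given a slope of 2 on the state score were called (18177 genes tested) and 58% of those on MYCN (17768 genes tested), against 34% and 26% at a slope of 1. For falling slopes, 70% on the state score and 72% on MYCN were called at -2, and 18% and 22% at -1. The changed genes were drawn at random from all genes tested. The HOX members varied more between lines (median SD of log2 CPM 1.89, against 0.86 for all genes), so these shares need not hold for them. Ratios of counts have exact binomial intervals (scipy 1.17.1), and 0 counts were set at 3. The trend with GC content and length was removed per library by loess (span 0.5). Values of a few listed genes, 1 HOX gene among them, are not reported here by name, although counts and sums include them. No line was left out of the levels, and IMR5-75 and SH-SY5Y were left out of the scans because they share an origin with IMR32 and SK-N-SH.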

Additional observations from a re-analysis of the deposited data

How the results depend on the processing

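The count of 26 members at 1 CPM or more was between 20 (at 5 CPM) and 27 (at 0.5 CPM) under all alternatives, and leaving out each line in turn, an alternative chosen after seeing the data, gave 22 (without SK-N-FI) to 26. For the state score, 1103 genes were called, against 2846 with DESeq2, 651 with the derived lines in place of the parental ones, and 495 (without GI-ME-N) to 1747 (without Lan-6) with 1 line left out, with 586 without SK-N-SH. For MYCN, 641 genes were called, against 3173 with DESeq2, 343 with limma, 1276 with all 14 lines, 0 with the derived lines in place of the parental ones (3908 at an unadjusted p under 0.05), and 0 (without IMR32 or NGP) to 1516 (without SK-N-AS) with 1 line left out. The count was also 238 without SK-N-BE(2)C, 8 without GI-ME-N, 335 without LS, 72 without NBL-S, 25 without SK-N-DZ, 361 without SK-N-FI and 14 without SK-N-SH, and the cause was not tested. Removing the trend with GC content and length moved 8 of the 167 member levels at 1 CPM or more by over 1.5 times, 6 in Lan-6 and 2 in GI-ME-N (HOXD11 and HOXD4, the second 1.27 in place of 1.92 CPM), all downwards. It left 4 in place of 5 members at 1 CPM in every line, and 14 in place of 13 at 10 CPM in a line and under 1 CPM in another. No paired analysis was possible because each line has 1 library. Members with few counts, such as HOXB5 to HOXB9, cannot be ordered across lines at this depth.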

Other observations

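Genes next to the clusters and genes of retinoic acid, a signal that switches on HOX genes in embryos, also varied between lines. Of 12 flanking genes measured, 9 reached 1 CPM in every line, and HIBADH and TTLL6 rose with the state score (slopes of 0.85 and 2.39 log2 per SD, edgeR adjusted p = 0.00196 and 0.00532). The lines with the highest scores, SK-N-SH and GI-ME-N, both had high HIBADH (95.1 and 84.7 CPM). They did not share TTLL6, for which SK-N-SH had 16.4 CPM and GI-ME-N had 0.0310 CPM. Its next levels were 2.28 CPM (LS) and 1.16 CPM (SK-N-AS). SKAP2, which flanks the HOXA cluster, had its highest levels in GI-ME-N (13.6 CPM) and SK-N-FI (13.3), and stood at 0.155 CPM in IMR5-75 and 0.0250 CPM in IMR32. SKAP1, which flanks the HOXB cluster, reached 4.06 CPM (SK-N-FI) and elsewhere no more than 0.617 (LS). EVX2, the gene next to HOXD13, was at 2.69 CPM in NGP, 1.28 in SH-SY5Y and 0.399 in IMR5-75, and at most 0.253 CPM (CLB-GA) in the others. CDX1 reached 1.61 CPM in SH-SY5Y and at most 0.165 CPM (SK-N-AS) elsewhere.

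Of 15 retinoic acid genes measured, 5 reached 1 CPM in every line. DHRS3, which turns retinal back to retinol, rose with the state score (slope 2.37, edgeR adjusted p = 0.0285) and fell with MYCN (slope -2.75, edgeR adjusted p = 0.0259), and CRABP2, a carrier of retinoic acid, fell with MYCN (slope -1.47, edgeR adjusted p = 0.0485). The highest DHRS3 levels were 50.8 CPM (SK-N-SH) and 8.52 CPM (SK-N-AS). GI-ME-N and LS, which also had high state scores, had 0.372 and 0.0686 CPM of DHRS3, so its rise was not shared by all high-scoring lines. CRABP1 ran from 0.0620 (GI-ME-N) up to 388 CPM (SK-N-FI), and ALDH1A3 from 0.0930 (GI-ME-N) up to 272 CPM (CLB-GA). Of the 8 fibroblast markers, 4 rose with the state score and 2 fell with MYCN, while 6.07% and 3.61% of all genes were called in these scans. The state score is itself built from markers such as COL1A1 and FN1, so the first of these counts is not independent of it. Of the 18 mesenchymal markers 4 fell with MYCN, and of the 18 adrenergic markers 0 were called on MYCN. All these calls on MYCN were lost without IMR32, without NGP and with the derived lines in place of the parental ones, where edgeR called 0 genes (3915, 3782 and 3908 at an unadjusted p under 0.05). In the leukocyte and endothelial and the kidney lists 0 genes were called in either scan, and WT1, a kidney marker, was highest in NGP at 19.5 CPM.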
